A study of Mus musculus with 16 samples.

Results

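The ligands of the chemokine receptor CXCR3 are encoded in mice by Cxcl9, Cxcl10 and Cxcl11. All 3 were found by gene symbol among the 23356 genes of an RNA-seq table of bone marrow-derived dendritic cells (BMDCs). BMDCs are dendritic cells (DCs) grown from bone marrow in culture, here with GM-CSF and IL-4, and the floating and loosely attached cells were taken. The mice were wild-type (WT), Tmem173-/- (the gene of STING), Irf1-/- or Irf3/7-/-, all listed with the C57BL/6 background, and their cells were left untreated (NT) or given c-di-GMP (CDG), a bacterial cyclic dinucleotide that STING binds, for 18 h. The sample labels give a dose of 25 μg/ml, and the legends of the study give a higher one. There were 16 samples, 2 for each of 8 conditions. The authors combined the 2 samples before deposition, so each condition has 1 FPKM value (fragments divided by transcript length and by the mapped total) with the lower and upper bound of its interval, and no spread between replicates and no p-value can be given. The mice were sex-matched young adults, and the deleted exons are not given in the sources used here.

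CXCL9, CXCL10 and CXCL11 bind CXCR3, a receptor of activated T cells and NK cells, and draw these cells to the tissue that makes them. CXCL9 (MIG) is known mainly as a product of IFN-γ. CXCL10 (IP-10) is induced by IFN-γ and type I interferon, and also by IRF and NF-κB factors directly, while CXCL11 (I-TAC) is induced by both kinds of interferon. DCs use these chemokines to attract T cells during priming.

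The 3 genes lie side by side on the minus strand of mouse chromosome 5. In the GRCm38 annotation (GENCODE M21), Cxcl9 is at chr5:92321347-92328079, Cxcl10 at chr5:92346638-92348889 and Cxcl11 at chr5:92359544-92365485, each with 4 exons in its main transcript. There are 18558 bases between Cxcl9 and Cxcl10 and 10654 bases between Cxcl10 and Cxcl11. Cxcl9 and Cxcl10 are annotated as protein-coding. Cxcl11 is annotated as a polymorphic pseudogene in GENCODE and as a transcribed pseudogene in RefSeq, and the C57BL/6 allele is known not to give a functional protein, so that its values here are of RNA only. The table gives Cxcl10, Cxcl11 and Art3, a gene on the opposite strand that spans both, a single joint locus. The libraries were stranded, but whether the counting behind the FPKM values used strand is not given in the sources used here, and the division of reads between Art3 and the genes it spans is uncertain to that extent. Art3 was listed at 0.162 FPKM at most.

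Promoter sequence bears on the interferon and NF-κB pathways named above, and is therefore shown for the members that RefSeq's promoter table holds, 2 of the 3. The 250 bases before the annotated start are given 5′ to 3′ on the minus strand of GRCm38.p6, with capitals marking every match of an IRF motif (GAAANNGAA), an NF-κB motif and the letters TATAAA, on both strands. The lines give Cxcl9 (chr5:92328080-92328329) and Cxcl10 (chr5:92348890-92349139).
Cxcl9: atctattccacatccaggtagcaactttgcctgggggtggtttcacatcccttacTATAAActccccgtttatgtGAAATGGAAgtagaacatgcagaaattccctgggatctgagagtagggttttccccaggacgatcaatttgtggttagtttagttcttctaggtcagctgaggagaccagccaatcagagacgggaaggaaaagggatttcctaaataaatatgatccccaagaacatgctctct
Cxcl10: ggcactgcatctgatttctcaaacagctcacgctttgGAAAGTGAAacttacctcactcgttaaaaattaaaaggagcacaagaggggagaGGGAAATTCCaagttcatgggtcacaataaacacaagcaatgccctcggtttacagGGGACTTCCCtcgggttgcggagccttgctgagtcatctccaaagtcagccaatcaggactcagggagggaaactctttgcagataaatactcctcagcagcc

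Each promoter held 1 IRF match, at bases -175 to -167 in Cxcl9 and at bases -213 to -205 in Cxcl10, counted from the annotated start. Cxcl10 held 2 NF-κB matches as well, at -159 to -150 and at -103 to -94, and Cxcl9 held none. The Cxcl9 window had a TATAAA at -195 to -190, which is a match of letters and is not taken as a working TATA box. The matches did not overlap one another. Among all 32851 windows of the same 300 bases (250 before and 50 after a start), 8.56% held the IRF motif, 4.51% the NF-κB motif and 13.6% TATAAA. An IRF match together with at least 2 NF-κB matches, as in Cxcl10, was found in 23 windows (0.07%), that of Cxcl10 among them. This combination was not among the planned searches and copies the matches of Cxcl10, so no conclusion is drawn from its low share. A match is a description of the reference sequence, and binding was not measured here.

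The targeted genes and cell markers were looked at first. Tmem173 was at 8.97 and 7.49 FPKM in Tmem173-/- BMDCs and at 77.0 to 118 FPKM in the other conditions. Irf1 was at 25.9 (NT) and 116 FPKM (CDG) in Irf1-/- BMDCs against 149 and 245 FPKM in WT BMDCs. In Irf3/7-/- BMDCs, Irf7 was at 1.07 and 4.97 FPKM against 15.2 and 687 FPKM in WT BMDCs, while Irf3 was at 7.74 and 20.2 FPKM against 19.9 and 15.8 FPKM. Irf3 was thus not low in the treated condition labelled Irf3/7-/-. Whole-gene FPKM does not separate deleted from remaining exons, and the genotype is used as labelled. All 8 DC markers were above 1 FPKM in every condition. Markers of other cells were present as well: the 12 markers of T and NK cells summed to between 719.6 and 2324 FPKM in WT and Irf3/7-/- BMDCs, to 22.1 and 37.4 FPKM in Irf1-/- BMDCs and to 1.90 and 1.87 FPKM in Tmem173-/- BMDCs. In WT and Irf3/7-/- BMDCs, most of each sum came from the granzyme genes Gzma and Gzmb.

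Cxcl10 had the highest level of the 3 genes in every treated condition. In WT BMDCs, untreated cells had 24.1 FPKM (authors' interval, 16.3 to 31.5) and treated cells 1037 FPKM (710.2 to 1332). In Tmem173-/- BMDCs, it was at 1.73 FPKM (0.976 to 2.46) and 2.0 FPKM (1.16 to 2.82). The treated WT level was the 71st highest of the table, and the Tmem173-/- levels were the lowest of this gene. In Irf1-/- BMDCs, Cxcl10 was at 4.06 FPKM (2.57 to 5.53) and 483 FPKM (333 to 629.8). Irf3/7-/- BMDCs had 21.6 FPKM (14.7 to 28.0) and 315 FPKM (214 to 412). Ordered by level, treated WT stood above treated Irf1-/- and treated Irf3/7-/- BMDCs, whose intervals overlapped each other. Untreated WT and untreated Irf3/7-/- BMDCs overlapped at the next step, and untreated Irf1-/- overlapped with treated Tmem173-/- BMDCs below them.

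Cxcl9 was as high as Cxcl10 in untreated WT and Irf3/7-/- BMDCs, within the intervals, and lower than Cxcl10 in every treated condition. It was at 21.7 FPKM (15.7 to 27.6) in untreated and 52.2 FPKM (38.5 to 65.8) in treated WT BMDCs. In Tmem173-/- BMDCs, it was at 0.0386 FPKM (0 to 0.0821) and 0.0470 FPKM (0 to 0.0958). These were the only conditions in which the lower bound of Cxcl9 reached 0. Irf1-/- BMDCs had 0.947 FPKM (0.602 to 1.29) and 15.4 FPKM (11.4 to 19.5). Irf3/7-/- BMDCs had 25.0 FPKM (18.2 to 31.7) and 35.1 FPKM (25.6 to 44.3). From treated WT down through treated and untreated Irf3/7-/-, untreated WT and treated Irf1-/- BMDCs, each condition overlapped with the next in the order. Untreated Irf1-/- BMDCs stood apart below these, and both Tmem173-/- conditions stood apart below untreated Irf1-/- BMDCs.

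Cxcl11 was below 1 FPKM without treatment, and its values were the least precise. In WT BMDCs, it was at 0.156 FPKM (0 to 0.672) and, after c-di-GMP, at 22.7 FPKM with an interval from 0.166 to 50.5. It was at 0.0125 (0 to 0.10) and 0.0233 FPKM (0 to 0.111) in Tmem173-/- BMDCs. In Irf1-/- BMDCs, it was listed at 0 without treatment and at 7.29 FPKM (0 to 17.8) after it. In Irf3/7-/- BMDCs, it was at 0.910 FPKM (0.111 to 1.72) and 36.8 FPKM (15.9 to 57.8), the highest level of this gene. Each condition overlapped with the next in the order of levels. The distance to the bounds of the treated WT value was 111% of the FPKM, against a median of 25.2% for the 3539 genes within 2-fold of that level, of which 99.6% had a narrower interval.

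**Figure D1:**
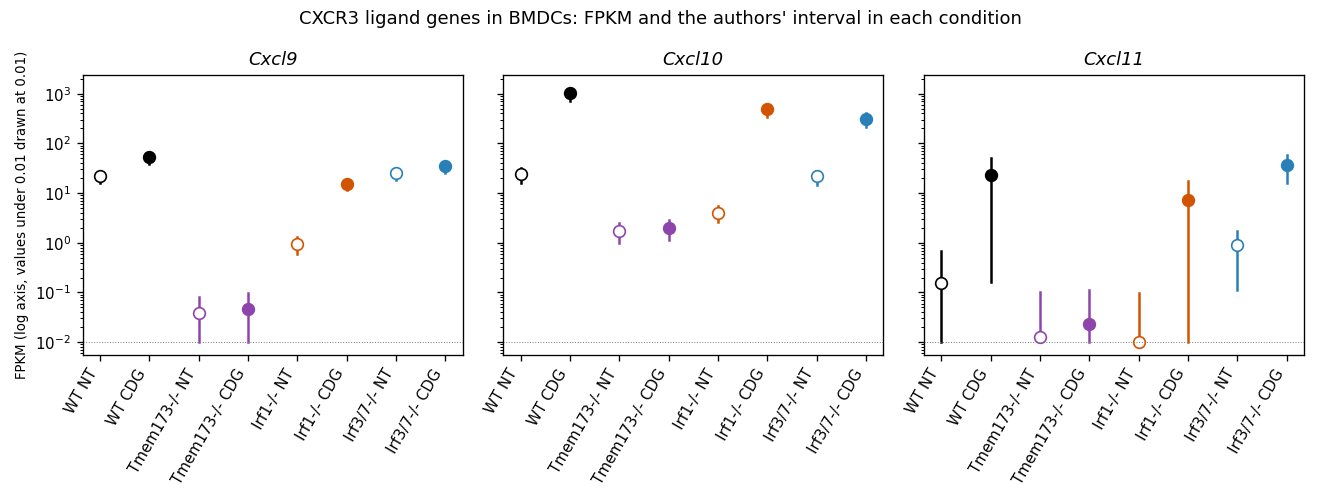
FPKM (log axis, values under 0.01 drawn at 0.01) of Cxcl9, Cxcl10 and Cxcl11 in the 8 conditions, with open points for untreated (NT) and filled points for treated (CDG) BMDCs, colours for genotypes and bars for the authors' intervals. Cxcl10 reaches 1037, 483 and 315 FPKM in treated WT, Irf1-/- and Irf3/7-/- BMDCs and stays at 2.0 FPKM in treated Tmem173-/- BMDCs, and the bars of Cxcl11 are the longest.

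In WT BMDCs, the mix of the 3 transcripts went from similar parts of Cxcl9 and Cxcl10 to mostly Cxcl10 with treatment. Their summed level was 45.9 FPKM in untreated WT BMDCs, of which Cxcl9 made 47.3% and Cxcl10 52.4%. After c-di-GMP the sum was 1112 FPKM, with 4.70% from Cxcl9, 93.3% from Cxcl10 and 2.04% from Cxcl11. FPKM is scaled by transcript length, so that these shares compare the genes' levels. The ratio of Cxcl10 to Cxcl9 was 1.11 in untreated WT BMDCs (0.592 to 2.0 when taken from the bounds) and 19.9 in treated WT BMDCs (10.8 to 34.6). In Irf1-/- BMDCs, the ratio was 4.29 (2.0 to 9.18) and 31.4 (17.1 to 55.4). In Irf3/7-/- BMDCs, it was 0.865 (0.463 to 1.54) and 8.99 (4.84 to 16.1). The ratio was therefore higher after c-di-GMP in each of these 3 genotypes, with ranges that did not overlap. It was highest in Tmem173-/- BMDCs, at 44.7 untreated and 42.6 treated, where Cxcl10 made 97.1% and 96.6% of the sum. Cxcl9 had a lower bound of 0 there, so that these 2 ratios have no upper limit. A mix of mostly Cxcl10 was thus not confined to cells in which the genes rose. Cxcl11 took its largest share, 9.51%, in treated Irf3/7-/- BMDCs.

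**Figure D2:**
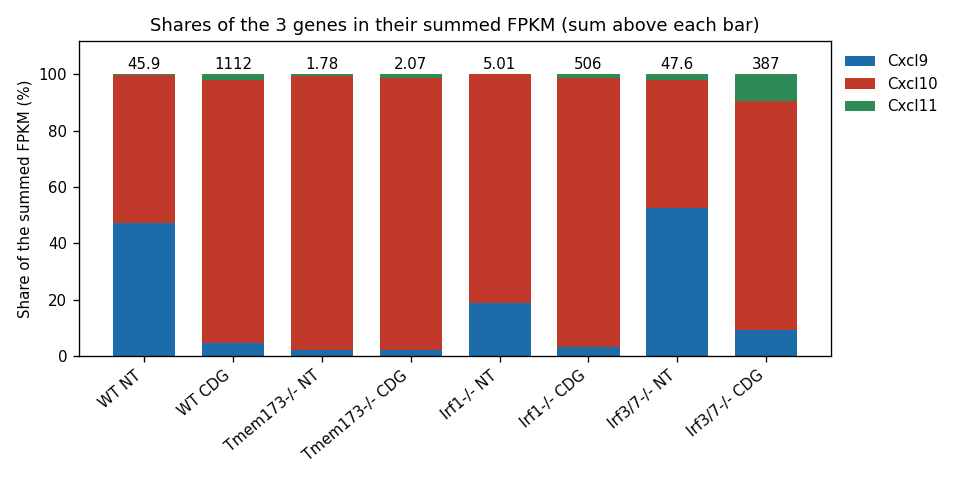
Share (%) of Cxcl9, Cxcl10 and Cxcl11 in their summed FPKM in each of the 8 conditions, with the summed FPKM above each bar. Cxcl10 makes 93.3%, 95.5% and 81.4% of the sum in treated WT, Irf1-/- and Irf3/7-/- BMDCs and 52.4%, 81.1% and 45.5% in the untreated ones. In untreated and treated Tmem173-/- BMDCs it makes 97.1% and 96.6% of sums of 1.78 and 2.07 FPKM.

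The first question was what c-di-GMP induced in each genotype. A call of higher or lower required a difference of more than 2-fold on the scale of log2(FPKM + 0.1), authors' intervals that did not overlap, 1 FPKM or more in either condition and an OK status in both. In WT BMDCs, Cxcl10 rose by 5.42 on the log2 scale (43.1-fold, from 22.6-fold to 81.5-fold when taken from the bounds) and Cxcl9 by 1.26 (2.41-fold, 1.40 to 4.19). The difference of Cxcl11 was 6.48, the largest of the 3, but its intervals overlapped and it was not called. Thus 2 of the 3 genes were called higher, where 10.5% of the 11201 genes tested were (and 9.96% lower). In Tmem173-/- BMDCs, the log2 differences were 0.08, 0.20 and 0.13 for Cxcl9, Cxcl10 and Cxcl11, and none was called. Of all genes tested there, 0.046% were called higher and 0.0092% lower. Only Cxcl10 reached the 1 FPKM needed for a call in this genotype.

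In Irf1-/- BMDCs, which started from lower levels, Cxcl9 and Cxcl10 were both called higher (9.67% of all genes tested, with 7.81% lower). Cxcl10 rose by 6.86 on the log2 scale, or 119-fold (60.3 to 245), and Cxcl9 by 3.89, or 16.3-fold (8.83 to 32.3). Cxcl11 differed by 6.21 and was not called. In Irf3/7-/- BMDCs, Cxcl10 rose by 3.86, or 14.6-fold (7.65 to 28.1), and Cxcl11 by 5.19, or 40.5-fold (9.21 to 521). These 2 of the 3 genes were called higher, as were 10.2% of all genes tested (7.68% were lower). Cxcl9 differed by 0.49 (1.40-fold, 0.809 to 2.43) and was not called. Whether a rise differed between genotypes could not be tested without replicates.

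The second question was how each treated knockout differed from treated WT BMDCs. All 3 of these comparisons share the treated WT samples. Treated Tmem173-/- BMDCs had all 3 genes called lower, where 13.5% of genes tested were (and 12.9% higher): Cxcl9 by a log2 difference of -8.48, Cxcl10 by -8.95 and Cxcl11 by -7.53. The bounds put Cxcl9 at least 402-fold and Cxcl10 at least 252-fold below treated WT BMDCs, and Cxcl11 only at least 1.49-fold. The Cxcl11 call thus rests on bounds of 0.111 and 0.166 FPKM that are close to each other.

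In treated Irf1-/- BMDCs, Cxcl9 and Cxcl10 were called lower than in treated WT BMDCs (4.91% of genes tested, with 2.65% higher). Cxcl9 stood at 29.5% of the WT level, a log2 difference of -1.75, with a fold from the bounds of 1.98 to 5.79. Cxcl10 stood at 46.6%, a log2 difference of -1.10, with a fold from the bounds of 1.13 to 4.0. Cxcl11 differed by -1.62 and was not called. In treated Irf3/7-/- BMDCs, Cxcl10 alone of the 3 was called lower (2.69% of genes tested, with 4.61% higher), at 30.4% of the WT level and a log2 difference of -1.72 (fold from the bounds, 1.72 to 6.21). Cxcl9 differed by -0.57, at 67.3% of the WT level, and Cxcl11 by 0.70, and neither was called.

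The treated knockouts were also set directly against each other. Cxcl9 was called lower in treated Irf1-/- than in treated Irf3/7-/- BMDCs, at 15.4 against 35.1 FPKM and a log2 difference of -1.18 (fold from the bounds, 1.32 to 3.90), where 6.62% of genes tested were called lower and 3.22% higher. Cxcl10 was at 483 against 315 FPKM, a log2 difference of 0.62 whose range from the bounds, 0.808-fold to 2.94-fold, spanned no change. Cxcl11 differed by -2.32 and was not called.

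Differences were present before treatment as well. In untreated Irf1-/- BMDCs, Cxcl9 was at 4.37% and Cxcl10 at 16.9% of the untreated WT level, log2 differences of -4.38 and -2.54, and both were called lower (3.52% of genes tested, with 1.26% higher). In untreated Tmem173-/- BMDCs, Cxcl9 was lower by a log2 difference of -7.30 and Cxcl10 by -3.72, and both were called (5.95% of genes tested, with 5.04% higher). In untreated Irf3/7-/- BMDCs, their differences were 0.20 and -0.15 and neither was called (0.863% of genes tested were called lower and 1.17% higher). Cxcl11 was below 1 FPKM in every untreated condition and could not be called. These 3 comparisons share the untreated WT samples.

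**Figure D3:**
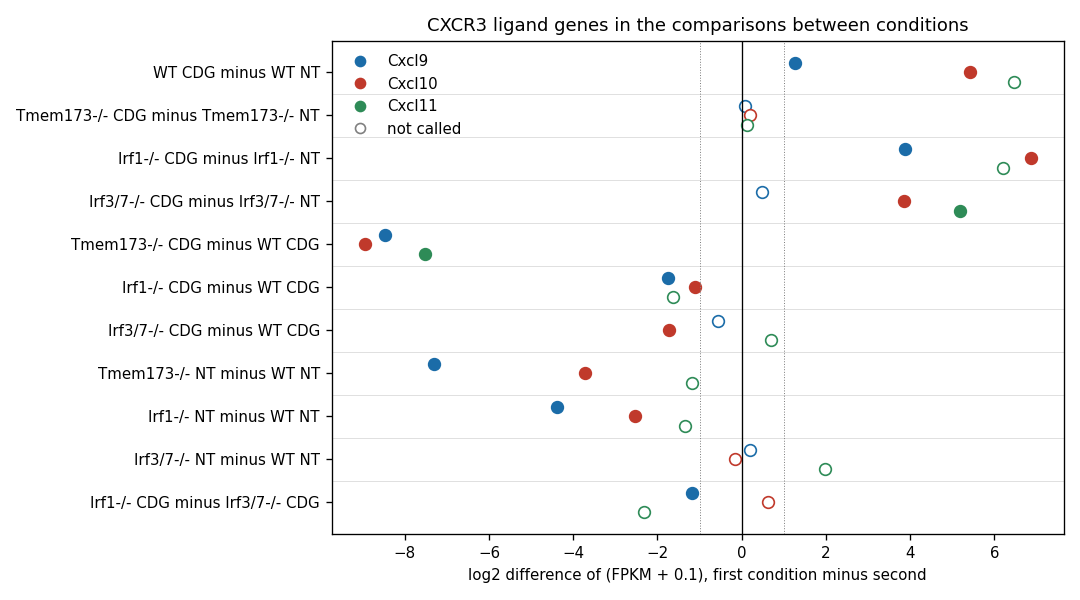
Log2 difference of (FPKM + 0.1) of Cxcl9, Cxcl10 and Cxcl11 in the 11 comparisons between conditions, filled where the gene was called, with dotted lines at a 2-fold difference. All 3 genes are far to the left in treated Tmem173-/- against treated WT BMDCs (-8.48, -8.95 and -7.53), and in treated Irf3/7-/- against treated WT BMDCs only Cxcl10 (-1.72) is filled.

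IFN-γ and its signalling genes were described next, since CXCL9 is known as an IFN-γ product. Ifng was at 34.6 FPKM in untreated and 299 FPKM in treated WT BMDCs, and was listed at 0 in both Tmem173-/- conditions. It was at 1.26 and 25.5 FPKM in Irf1-/- and at 44.0 and 1155 FPKM in Irf3/7-/- BMDCs. Ifng was thus called higher in treated Irf3/7-/- than in treated WT BMDCs (log2 difference 1.95) and lower in treated Irf1-/- BMDCs (-3.54), while Cxcl9 was lower in the latter and not called in the former. Of the 9 IFN-γ signalling genes, 2 were called higher by c-di-GMP in WT BMDCs (Ifng and Irf8), 4 in Irf1-/- BMDCs and 2 in Irf3/7-/- BMDCs, and none was called lower. The 4 in Irf1-/- BMDCs included Irf1, the targeted gene, at 25.9 and 116 FPKM.

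The levels of the T and NK cell markers are given beside these values. Against treated WT BMDCs, 7 of the 9 tested were called lower in treated Irf1-/-, 8 of 9 lower in treated Tmem173-/- and 8 of 9 higher in treated Irf3/7-/- BMDCs. Of the 12 genes, 10 and 9 were at 1 FPKM or above in untreated and treated WT BMDCs, 10 and 9 in Irf3/7-/- BMDCs, 5 and 4 in Irf1-/- BMDCs and none in Tmem173-/- BMDCs. Gzmb (granzyme B) was at 321 and 336 FPKM in WT, 10.0 and 18.7 FPKM in Irf1-/- and 362 and 1242 FPKM in Irf3/7-/- BMDCs. Gzma (granzyme A) was at 349 and 329 FPKM in WT and 315 and 900 FPKM in Irf3/7-/- BMDCs, and was listed at 0 in both Tmem173-/- conditions. These granzyme genes made most of the summed markers in WT and Irf3/7-/- BMDCs. Cd3e, a chain of the T cell receptor complex, was at 9.18 and 5.41 FPKM in WT BMDCs and at 0.641 and 0.479 FPKM in Irf1-/- BMDCs. Ncr1, an NK cell receptor, was listed at 0 in untreated Tmem173-/- and both Irf1-/- conditions. It was low in WT BMDCs too, at 0.193 and 0.290 FPKM, and at 0.661 FPKM at most. Lck, a kinase of T cell receptor signalling, went from 1.26 to 6.16 FPKM in Irf1-/- BMDCs and was not called against the 8.62 FPKM of treated WT BMDCs. Cd4 was at 0.154 FPKM at most. Cd8a was at 21.8 and 16.5 FPKM in WT, 1.70 and 1.40 FPKM in Irf1-/- and 33.2 and 60.8 FPKM in Irf3/7-/- BMDCs. Cxcl9, Ifng and the summed markers were thus all lower in Irf1-/- than in WT BMDCs at the same treatment, and lowest in Tmem173-/- BMDCs. Cxcl10 had the same order, so it was not particular to Cxcl9. In bulk cultures, fewer cells of a type and less RNA per cell cannot be told apart, and the part of T and NK cells in the values of the chemokine genes was not tested. Within WT BMDCs the summed markers were 745 FPKM without and 719.6 FPKM with c-di-GMP, while the median of the 12 was 9.44 and 6.30 FPKM. Within Irf3/7-/- BMDCs the sum was 778 FPKM without and 2324 FPKM with c-di-GMP, and the median 12.9 and 22.95 FPKM.

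**Figure D4:**
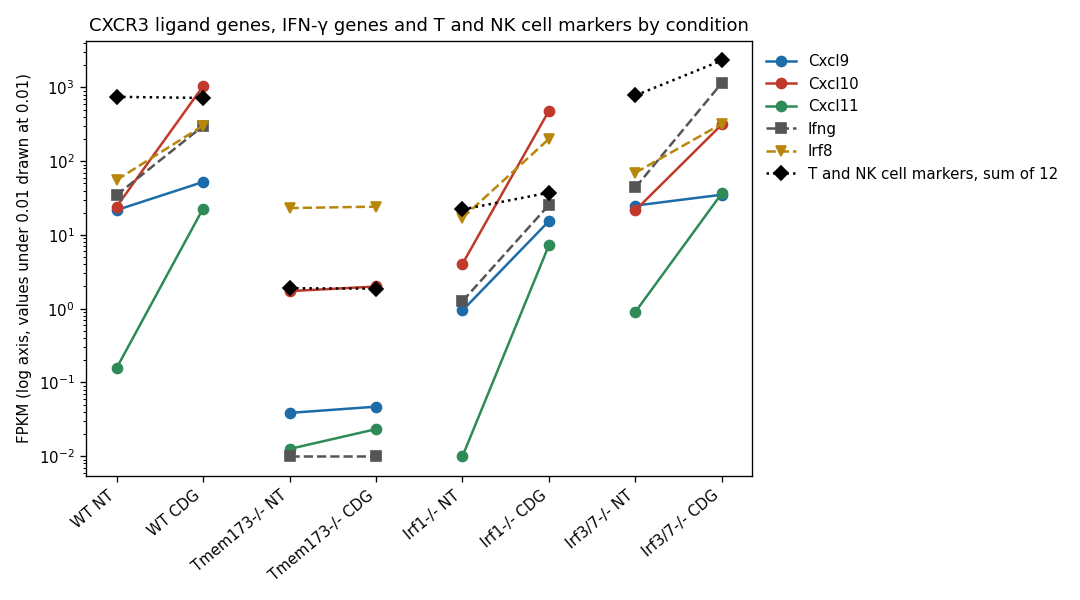
FPKM (log axis, values under 0.01 drawn at 0.01) of Cxcl9, Cxcl10, Cxcl11, Ifng and Irf8 and the sum of 12 T and NK cell markers in the 8 conditions, with a line joining the untreated and treated condition of each genotype. The sum is mostly Gzma and Gzmb in WT and Irf3/7-/- BMDCs. Ifng (0 FPKM), the markers (1.90 and 1.87 FPKM), Cxcl9 and Cxcl10 are all at their lowest in Tmem173-/- BMDCs. In treated Irf3/7-/- BMDCs, Ifng reaches 1155 FPKM while Cxcl9 stays at 35.1 FPKM.

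Type I interferon was described in the same way. Ifnb1, the gene of IFN-β, was listed at 0 in untreated WT BMDCs and at 2.93 FPKM (1.76 to 4.08) in treated WT BMDCs. It was at 3.53 FPKM in treated Irf1-/- and at 22.6 FPKM (15.8 to 29.3) in treated Irf3/7-/- BMDCs, and at 0.0474 FPKM in treated Tmem173-/- BMDCs. Ifnb1 was called higher in treated Irf3/7-/- than in treated WT BMDCs (log2 difference 2.90), where Cxcl10 was called lower. Among the 9 type I interferon signalling genes, 5 were called higher by c-di-GMP in each of the WT, Irf1-/- and Irf3/7-/- genotypes and none lower. They were not the same 5: Ifnar2 was called in WT, Irf9 in Irf1-/- and Irf3, a targeted gene, in Irf3/7-/- BMDCs, where the other targeted gene, Irf7, was called as well at 4.97 FPKM. Irf7, which amplifies the type I response, rose by 5.49 on the log2 scale in WT and by 7.26 in Irf1-/- BMDCs. The inducers of IFN-γ (IL-12, IL-15, IL-18 and IL-27 genes) had 6 of 6 genes called higher in WT, 5 of 6 in Irf1-/- and 6 of 6 in Irf3/7-/- BMDCs. Il12b, the p40 chain of IL-12, was at 148 FPKM in treated WT, 49.9 FPKM in treated Irf1-/- and 1474 FPKM in treated Irf3/7-/- BMDCs.

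Genes known to be induced by either interferon were used to place the chemokine genes. In WT BMDCs, 12 of 12 type I interferon-induced genes were called higher, with a median log2 difference of 5.49 against 0.00 over all genes tested. Cxcl10 (5.42) lay in the middle of them, above 6 and below 6, and Cxcl9 (1.26) lay below all 12. Of the 14 IFN-γ-induced genes, 9 were called higher with a median of 1.44, and Cxcl9 lay above 5 and below 9 of them, while Cxcl10 and the uncalled Cxcl11 lay above all 14. Rsad2 (8.25), an antiviral enzyme, and Oasl1 (6.66) rose most in the first list, and Ubd (4.68), a ubiquitin-like protein, and Nos2 (4.45), the inducible nitric oxide synthase, in the second.

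In Irf1-/- BMDCs, the medians were 6.73 for the type I list (12 of 12 called higher) and 2.61 for the IFN-γ list (11 of 12 tested). Ubd (0.147 and 0.895 FPKM) and Ido1 (0.0629 and 0.182 FPKM) were too low to be tested there. The IFN-γ median and places are thus not over the same 14 genes as in WT BMDCs. Cxcl10 (6.86) lay above 7 of the 12 type I genes, and Cxcl9 (3.89) above 11 of the 12 IFN-γ genes tested. In Irf3/7-/- BMDCs, the medians were 5.45 (12 of 12) and 1.056 (7 of 13 tested). Here Cxcl10 (3.86) lay above only 2 of the 12 type I genes, and above all 13 IFN-γ genes. Cxcl9 (0.49) lay above 4 of those 13.

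Against treated WT BMDCs, the treated Irf1-/- condition had 7 of 14 IFN-γ-induced genes called lower (median -1.10) and 3 of 12 type I interferon-induced genes (median -0.32). Cxcl9 (-1.75) was lower than 11 of the 14 and than 10 of the 12, and Cxcl10 (-1.10) was lower than 7 of the 14 and than 9 of the 12. Ubd differed by -7.11, Ido1, a tryptophan-degrading enzyme, by -3.61 and Gbp2, a guanylate-binding protein, by -1.67. In the treated Irf3/7-/- condition, 3 of the 14 IFN-γ genes were called lower and 1 higher (Nos2, 1.22), with a median of -0.45, and 4 of the 12 type I genes were called lower with a median of -0.78. Cxcl10 (-1.72) was lower than 11 of these 12, the exception being Oasl1 (-1.94), and lower than 12 of the 14 IFN-γ genes. Cxcl9 (-0.57, not called) was lower than 3 of the 12 and than 9 of the 14. In treated Tmem173-/- BMDCs, all 14 and all 12 were called lower, with medians of -3.83 and -7.77.

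The other chemokines of the CXC class were mostly higher in treated Irf3/7-/- BMDCs. Of 7 tested there, 6 were called higher than in treated WT BMDCs, with a median log2 difference of 2.26. They included the neutrophil-attracting Cxcl1 (2.26), Cxcl2 (1.51), Cxcl3 (1.0) and Cxcl5 (3.33), and all 3 CXCR3 ligand genes lay below at least 6 of the 7. Cxcl16, which binds CXCR6, differed by -0.22 and was not called. In treated Irf1-/- BMDCs, Cxcl3 was called lower (-2.18), and Pf4 (1.27) and Ppbp (2.26), chemokines known from platelets, were called higher. Of the 5 neutrophil markers in the table, 3 were called higher and 1 lower in treated Irf1-/- than in treated WT BMDCs, and 2 were called higher in treated Irf3/7-/- BMDCs. In treated Tmem173-/- BMDCs, 4 of the 5 were called higher and 0 lower, with a median log2 difference of 2.70. Mpo, the myeloperoxidase gene, was at 2.90 FPKM in treated WT, 12.6 FPKM in treated Irf1-/- and 13.7 FPKM in treated Irf3/7-/- BMDCs, while Camp, an antimicrobial peptide gene, was at 37.0, 3.96 and 25.9 FPKM. All 5 basophil and mast cell markers were called higher in treated Irf3/7-/- than in treated WT BMDCs, with a median log2 difference of 1.66 and a summed level of 251 against 80.8 FPKM. The part of these cells in the chemokine values was not tested.

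**Figure D5:**
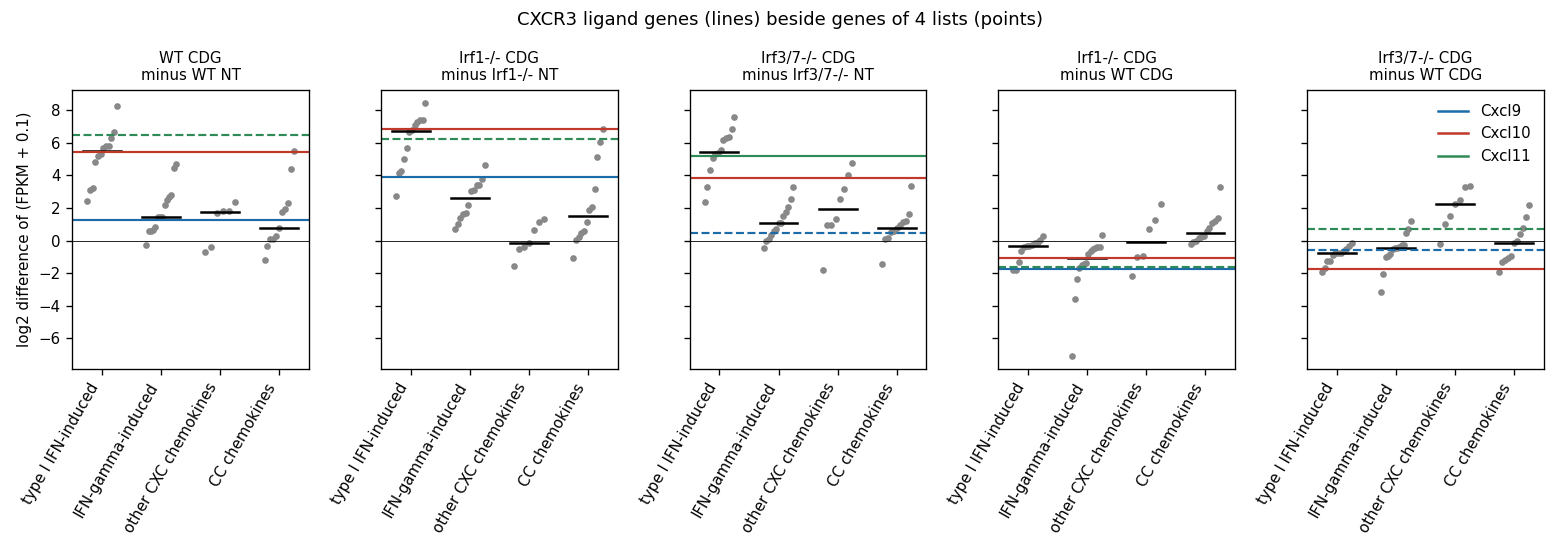
Log2 difference of (FPKM + 0.1) in 5 comparisons for each tested gene of 4 lists (points, with the median as a black bar) and for Cxcl9, Cxcl10 and Cxcl11 (lines, dashed where not called). In WT BMDCs, the Cxcl10 line (5.42) runs through the type I interferon-induced genes and the Cxcl9 line (1.26) near the median of the IFN-γ-induced genes (1.44).

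Genes with a similar pattern were named by the Pearson r of log2(FPKM + 0.1) over the 8 conditions, which share libraries pooled by condition, among 7382 genes with at least 10 FPKM in one condition. The 5 genes most like Cxcl9 were Serpina3f (r = 0.99), Cog2 (0.99), Tgtp2 (0.99), Tap1 (0.98) and Cnn3 (0.98). Tap1 is the peptide transporter of MHC class I, and ran from 33.5 FPKM in treated Tmem173-/- to 269 FPKM in treated WT BMDCs. The r measures the order and spacing of the conditions and not the size of the change, as Cog2 was between 14.2 and 17.6 FPKM throughout. The 5 genes most like Cxcl10 were H2-T22, Parp10, Isg20, Mov10 and Limk2, with r of 0.994 to 0.997. H2-T22, an MHC class I-like gene, was at 31.8 and 159 FPKM in WT BMDCs, and Isg20, an interferon-induced exonuclease, at 10.4 and 195 FPKM. For Cxcl11 they were Dnaja2, Mdm2, Chp1, Rnf14 and Gna13, with r of 0.99. Mdm2, a ubiquitin ligase, was at 52.3 and 159 FPKM in WT and at 61.5 and 194 FPKM in Irf3/7-/- BMDCs.

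The members were less like one another. Cxcl9 and Cxcl10 had an r of 0.86, Cxcl9 and Cxcl11 of 0.78, and Cxcl10 and Cxcl11 of 0.95. Seen from Cxcl9, Irf1 (0.97) and Ifng (0.96) were at places 21 and 23 of 7381 genes, and Cxcl10 at place 274. Seen from Cxcl10, Irf8 (0.97) was at place 175 and Ifng (0.88) at place 972. From Cxcl11, Irf8 (0.98) was at place 7 and Ifng (0.86) at place 936. These values describe 8 points and carry no test. The named genes depended on the measure: with Spearman rho in place of Pearson r, 1, 3 and 0 of the 5 genes were kept for Cxcl9, Cxcl10 and Cxcl11.

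The receptor itself was nearly absent from the cultures. Cxcr3 was at 0.0134 to 0.202 FPKM in the 8 conditions and Cxcr7, a second receptor of CXCL11, at 0.0353 FPKM at most. Dpp4, a protease known to trim these chemokines, was at 3.01 to 7.78 FPKM. It was at 6.59 and 4.23 FPKM in WT and at 7.78 and 3.51 FPKM in Irf1-/- BMDCs.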

How the data were processed

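The deposited table was made by the authors with Cuffdiff (version 1.06 in the submitters' processing notes, which also name mm9) and gives, for each condition, an FPKM that combines 2 replicates, the bounds of its interval and a status. Listed loci overlapped their namesakes in GRCm38 (GENCODE M21) for 21454 of 21681 genes (99%), and that build is used for positions. Libraries were made with a stranded mRNA kit and read as pairs. An opposing-strand setting is stated for a Seqmonk analysis, and the aligner, annotation and strand setting behind the deposited FPKM are not given in the sources used here. A further 4 columns of another knockout were not used. Values were compared as log2(FPKM + 0.1) in 11 comparisons. No test between conditions was run, because there is 1 value per condition. The call rule was tested on simulated data, with large changes in genes of narrow intervals and noise drawn from the authors' intervals. Changes near 2-fold were not simulated, nor were changes in genes with intervals as wide as that of Cxcl11 in treated WT BMDCs. The simulation therefore does not bear on such calls. A target depth is stated in the methods, but the depth reached in each sample is not known here. FPKM hides it, and the FPKM ratios of low genes showed no step of single reads. The bounds of some low genes, such as Cxcr3, did lie on evenly spaced values, and depth was not derived from them. The median distance from FPKM to its bounds was 25.2% to 25.7% for 4710 genes that reached 10 FPKM in all conditions. Named genes are the members, genes of the lists, the 5 genes most like each member and the genes within 200 kb. An item of the lists and a motif searched are not reported here. The members and lists were chosen with earlier results of these data known. Marker lists covered dendritic cells, macrophages, T and NK cells, B cells, neutrophils, and basophils and mast cells. Alternatives were pseudocounts of 1 and 0.01 FPKM, no minimum or 5 FPKM, folds of 1.5 and 4, median centring, the fold alone and, for similar patterns, Spearman rho. Matplotlib 3.10.9, pandas 2.3.3, numpy 2.4.6 and python 3.11.15 were used.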

Additional observations from a re-analysis of the deposited data

How the results depend on the processing

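Of 264 values of the 3 genes under the alternatives, 255 kept their direction and call and none reversed. The 255 include comparisons that were not tested at the main setting and so had no call to lose. These were Cxcl9 and Cxcl11 within Tmem173-/- BMDCs and Cxcl11 between untreated conditions. With a fold above 4 required, 5 calls were lost, by construction: Cxcl9 in WT BMDCs (1.26), in treated Irf1-/- against treated WT (-1.75) and against treated Irf3/7-/- BMDCs (-1.18), and Cxcl10 in treated Irf1-/- (-1.10) and treated Irf3/7-/- (-1.72) against treated WT BMDCs. With the fold alone, 4 differences of Cxcl11 were called: in WT (6.48) and Irf1-/- BMDCs (6.21), and in treated Irf1-/- against treated WT (-1.62) and against treated Irf3/7-/- BMDCs (-2.32). The genes with the most similar pattern depended on the measure. With a pseudocount of 1 FPKM, 1 of the 5 genes was kept for Cxcl9, 3 for Cxcl10 and 1 for Cxcl11. With Spearman rho, 1, 3 and 0 were kept. The cause was not tested. Counts over all genes moved by more than 1.5 times in 52 of 176 cases, of which 22 were at a fold above 4. The WT count of higher genes ran from 399 to 1574 around 1175. Counts over the gene lists so moved in 33 of 384 cases. Median centring shifted no comparison by more than 0.043. No paired analysis was possible because the replicates were combined before deposition, and for the same reason no replicate could be left out. Counting error and the spread between cultures cannot be separated in the intervals, and the interval of Cxcl11 limits its calls most.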

Other observations

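Neighbours of the CXCR3 ligand genes fell or were not called in WT BMDCs. Within 200 kb of the members there are 11 other genes, of which 7 were tested there: none was called higher and 3 were called lower by c-di-GMP (against 10.5% and 9.96% of all genes tested), with a median log2 difference of -0.55. Naaa, an acid amidase that breaks down N-acylethanolamines, fell from 258 to 30.3 FPKM in WT BMDCs (log2 difference -3.09), from 439 to 60.3 FPKM in Irf1-/- BMDCs (-2.86) and from 288 to 15.4 FPKM in Irf3/7-/- BMDCs (-4.21). It was at 245 and 229 FPKM in Tmem173-/- BMDCs and was not called there. Sdad1 fell by 1.36 and Ppef2 by 2.26 on the log2 scale in WT BMDCs. Scarb2, a lysosomal membrane protein, was called higher in Irf1-/- BMDCs (1.11).

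Among CC chemokines, Ccl5 rose by 5.52 on the log2 scale in WT BMDCs, from 796 to 36577 FPKM, close to the 5.42 of Cxcl10. It was lower in treated Irf3/7-/- than in treated WT BMDCs (-1.90) and not called in treated Irf1-/- BMDCs (-0.20), where Cxcl10 was called lower. Ccl22 was listed at 0 with a failed status in the treated WT, Irf1-/- and Irf3/7-/- conditions and was not used. Of the 7 NF-κB genes, 3 were called higher by c-di-GMP in WT BMDCs (Nfkb2, Tnf and Il1b), 1 in Irf1-/- BMDCs (Nfkb2) and 4 in Irf3/7-/- BMDCs (Relb in addition). Il1b, the gene of IL-1β, was lower in treated Irf1-/- (-2.44) and treated Irf3/7-/- BMDCs (-1.32) than in treated WT BMDCs.

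The lists of other cell types gave the following ranges over the 8 conditions. The 8 DC markers summed to between 4844 and 8711 FPKM. The 6 macrophage markers summed to 309 and 326 FPKM in untreated and treated Tmem173-/- BMDCs and to between 81.1 and 128 FPKM in the other conditions. The B cell markers summed to between 3.34 and 10.7 FPKM and the 5 neutrophil markers in the table to between 48.3 and 443 FPKM, both highest in untreated Tmem173-/- BMDCs. The 5 basophil and mast cell markers summed to between 54.0 and 251 FPKM. All 5 of the latter were called higher in untreated Irf3/7-/- than in untreated WT BMDCs, with a median log2 difference of 1.37.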
